A study of Rattus norvegicus with 37 samples.

Results

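Livers of rats that swam after a spinal cord contusion were compared with livers of rats that walked in shallow water after the same injury. These were the libraries whose titles name swimming (CONT SCI + SWIM, 5 rats) or shallow water walking (CONT SCI + SWW, 5 rats), 10 of the 37 libraries of the series and 10 of the 22 of its SCI + Exercise set. All 10 were female Sprague-Dawley rats, about 8 to 9 weeks old, and each received a 25 g-cm contusion with the NYU Impactor at level T2. According to the labels, exercise in both groups began 10 days after injury and ran for 8 weeks on 5 consecutive days per week, with 2 sessions of 15 min per day made of 3 bouts of 5 min, and tissue was taken 11.5 weeks after injury. The paper gives a later collection and a longer training for both groups alike. All rats were kept in tiny cages that restricted movement, housed in pairs with a rat of their own group. Cage mates can therefore be among the replicates, and which rats shared a cage is not given in the sources used here. Unexercised rats of the same set were used to place and scale the printed levels and in an alternative fit of all 5 groups. They took no part in the main fit. They were 4 rats with the same contusion (CONT SCI), 4 rats without injury (No SCI) and 4 transected rats (TX SCI). The TX SCI rats had a complete transection at T2 and were sampled 8.5 weeks after it. The labels put the CONT SCI rats at 11.5 weeks after injury, and the paper puts the uninjured rats at the equivalent time. If the exercised rats were collected later, as the paper states, they also differed from all unexercised rats in time. The part of time in the placements below was not tested.

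The liver makes and releases glucose, packages lipids for transport, produces most plasma proteins and clears drugs and hormones, and its output is adjusted by hormones, by nutrients and by sympathetic and vagal nerves. A contusion high in the thoracic cord interrupts descending control of the sympathetic neurons that supply it. In swimming the body weight is carried by the water, whereas in shallow water walking the limbs step on a floor under partial support, so that the sensory input from the paws and the load on the limbs differ. The comparison asks whether the liver transcriptome differed between these kinds of exercise after the same injury.

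Gene expression was measured as poly(A) RNA read counts per Ensembl gene. The deposited table pairs none of its 24613 identifiers with a gene name, and the RefSeq gene table used here (47357 genes) matched 0 of them. Genes are therefore described by their level, size of difference and spread, 4 of them by identifier, and the labelled tissue was not checked against liver markers. No sequence is shown for the same reason.

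The swimming rats had 26190364 to 36607354 reads counted on genes (median 29307408), and the walking rats had 30241918 to 35461985 (median 34439099). Genes with at least 1 count numbered 13648 to 15361 in the swimming rats and 14859 to 15510 in the walking rats. The 10 genes with the most counts took 22.0% to 25.7% of a library after swimming and 23.5% to 26.4% after walking. SWIM replicate 3 had the fewest counted reads and held the fewest genes, 13648, while the other 4 swimming rats had 14951 or more. In the paper's alignment summary this library also had the lowest share of uniquely mapped reads in the whole series. By the same summary, SWIM replicates 1 and 5 had lower shares than every walking rat. The part of mapping in the results below was not tested. Every pair of libraries of 1 group differed by more than sampling noise (lowest reduced chi-square 48.96 among 20 pairs), so each library was kept as a separate sample.

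After adjustment for the number of genes tested, no gene was called between swimming and shallow water walking by edgeR, and 14 were called by DESeq2. Of 12525 genes, 0 (0%) had an adjusted p under 0.05 in the quasi-likelihood test of edgeR (Benjamini-Hochberg adjustment). The lowest adjusted p in edgeR was 0.782. At an unadjusted p under 0.05 there were 680 genes (5.43% of those tested), 361 with the higher mean after swimming (2.88%) and 319 with the higher mean after walking (2.55%). A uniform distribution of p-values places 5% of genes there. The order of the directions depended on the fit, with 404 higher and 487 lower without the count filter and 342 higher and 472 lower with the replicate number as a block. The 14 genes called by DESeq2 were 0.112% of 12519, 5 with the higher mean after swimming (0.0399%) and 9 with the lower mean (0.0719%). Their unadjusted p in edgeR lay between 0.000125 and 0.0025. In bulk liver RNA, fewer cells of a type and less RNA per cell cannot be told apart in any of these values.

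The differences that were measured were small. The median size of the log2 fold change over the 12525 genes was 0.15, 90% of genes lay under 0.44 and 99% under 1.01. The median of the signed log2 fold changes was -0.002, a value that the TMM scaling sets near 0, so each fold change is relative to the bulk of the genes. The 95% interval of the log2 fold change (unadjusted for the number of genes) lay wholly inside a 2-fold difference for 10339 genes, or 82.5%, and inside a 1.5-fold difference for 6765 genes, or 54.0%. For the other 2186 genes the interval reached a 2-fold difference or more on the higher side, on the lower side or on both. A missing call in those genes does not show equal levels.

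How tightly a gene was bounded depended on its level. Among 3077 genes with a mean under 100 counts, the median standard error of the log2 fold change was 0.34 and 49.5% of intervals lay inside 2-fold. Among 6086 genes with a mean of 100 to 1000 counts the median standard error was 0.16 and the share was 91.9%. For 2991 genes between 1000 and 10000 counts the values were 0.13 and 96.2%, and for 371 genes above 10000 counts they were 0.14 and 93.8%. The standard error was thus about as large in the most abundant genes as in those of 1000 to 10000 counts.

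More of the large fitted differences were lower than higher after swimming. A fitted difference of more than 2-fold was found in 131 genes, 36 higher and 95 lower after swimming, and 79 of the 131 had an unadjusted p under 0.05. Leaving out each rat in turn gave 35 to 58 genes higher and 85 to 229 lower, with more genes on the lower side in each of these 10 fits, which share most of their rats. Without SWIM replicate 3 the numbers were 49 and 86, and without SWIM replicate 2 they were 47 and 229. Among genes with a mean under 100 counts and an unadjusted p under 0.05, 41 were higher and 98 lower after swimming, and among those from 100 to under 10000 counts the order was the other way, 317 higher and 203 lower. Above 10000 counts, 3 genes were higher and 18 lower. The genes at an unadjusted p under 0.05 made up 4.52% of those under 100 counts, 5.44% and 6.32% of the next classes and 5.66% of those above 10000 counts, near the 5.43% over all genes. The difference between directions was not tested. No gene among them passed the adjusted threshold in edgeR.

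**Figure D1:**
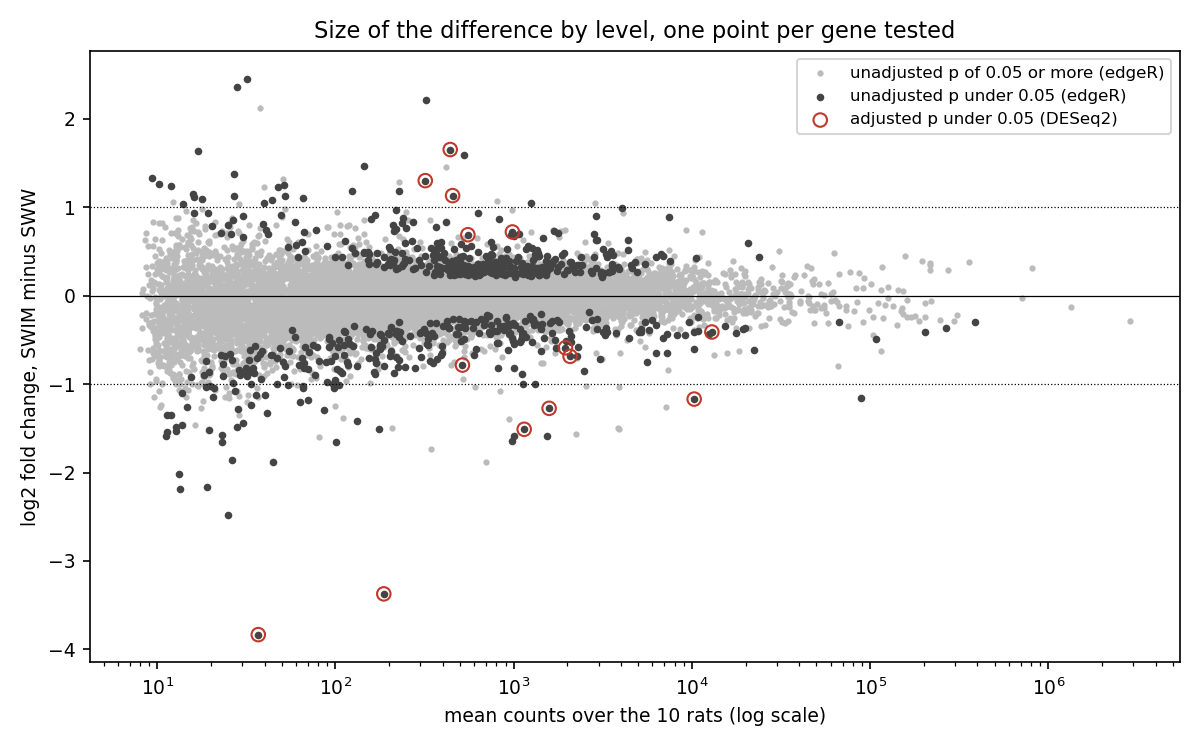
Each point is 1 of the 12525 genes tested, with its mean counts over the 10 rats on a log axis and its log2 fold change, SWIM minus SWW, on the vertical axis. Dotted lines mark a 2-fold difference, which 131 genes exceeded. Dark points are the 680 genes at an unadjusted p under 0.05 by edgeR, and open circles are the 14 genes called by DESeq2, of which 9 lie below the zero line.

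The groups did not overlap in 85 genes (0.679% of those tested), where every swimming rat lay on the same side of every walking rat. In 44 of these genes (0.351%) the swimming rats were the higher and in 41 (0.327%) the walking rats were. The size of the log2 fold change in the 85 genes ranged from 0.15 to 3.83 with a median of 0.39, and 71 of them had an unadjusted p under 0.05. Of the 14 genes called by DESeq2, 10 had groups that did not overlap, and their sizes ran from 0.41 to 3.83 with a median of 1.15, at means of 36.9 to 12942.5 counts.

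With a mean of at least 100 counts, 65 genes had groups that did not overlap. The 12 of these with the smallest p in each direction were examined further. Those with the higher level after swimming had log2 fold changes of 0.34 to 1.13 (median 0.48) and unadjusted p-values of 0.000452 to 0.0102 in edgeR, and DESeq2 called 3 of the 12. Those with the lower level had sizes of 0.34 to 1.51 (median 0.59) and unadjusted p-values of 0.000125 to 0.00343 in edgeR, and DESeq2 called 6 of the 12. The adjusted p was 0.782 for all 24 in edgeR.

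ENSRNOG00000029543 had the smallest p of all genes. Its level after swimming was 26.5, 14.5, 11.2, 15.3 and 22.8 normalised CPM (counts scaled to library size) in replicates 1 to 5, and after walking it was 35.4, 37.2, 78.3, 59.9 and 46.6. Every walking rat lay above every swimming rat. The walking rats spread over a wider range in CPM, but on log2(CPM + 1) the SD was 0.47 after walking and 0.48 after swimming. The log2 fold change was -1.51 (standard error 0.27, 95% interval -2.10 to -0.92), with an adjusted p of 0.782 in edgeR and 0.00024 in DESeq2. Unexercised rats lay nearer to the swimming rats. The contused rats without exercise averaged 21.3 ± 9.56 CPM (SD, n = 4), the uninjured rats 15.9 ± 3.19 (SD, n = 4) and the transected rats 20.3 ± 8.43 (SD, n = 4). The swimming rats averaged 18.1 ± 6.36 CPM (SD, n = 5) and the walking rats 51.5 ± 17.8 (SD, n = 5). The highest of the 12 unexercised livers, a CONT SCI rat at 35.2 CPM, was below the lowest walking rat at 35.4.

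ENSRNOG00000001691 had the smallest p among the genes with the higher level after swimming. Its level was 35.1, 29.2, 41.7, 48.8 and 34.1 CPM in swimming replicates 1 to 5 and 19.5, 25.0, 21.8, 20.0 and 28.2 in walking replicates 1 to 5. The groups did not overlap, but the lowest swimming rat, at 29.2, was close to the highest walking rat, at 28.2. The log2 fold change was 0.72 (standard error 0.15, 95% interval 0.39 to 1.06), with an adjusted p of 0.782 in edgeR and 0.0291 in DESeq2. Here the unexercised contused rats, at 25.0 ± 5.86 CPM (SD, n = 4), lay nearer to the walking rats, and the No SCI rats, at 37.2 ± 11.6 (SD, n = 4), nearer to the swimming rats.

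Each of the other 2 genes was called by edgeR when 1 rat was left out and by DESeq2 with all 10 rats, and both were chosen for the former after their values were seen. ENSRNOG00000007332 had 1.24, 0.82, 1.58, 0.47 and 0.92 CPM in swimming replicates 1 to 5 and 0.82, 6.45, 14.5, 7.29 and 22.5 CPM in walking replicates 1 to 5. All swimming rats were low, 4 walking rats were at least 6.45 CPM, and SWW replicate 1 lay among the swimming rats. The log2 fold change was -3.37 (standard error 0.71), with an adjusted p of 0.782 in edgeR and 0.00627 in DESeq2, and without SWW replicate 1 it was -3.67 with an adjusted p of 0.0478 in edgeR. Low and high rats also occurred without exercise, with ranges of 0.657 to 4.15 CPM in CONT SCI, 0.780 to 6.78 in No SCI and 0.468 to 8.70 in TX SCI.

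ENSRNOG00000053232 was the reverse case. The swimming rats had 18.6, 17.8, 5.05, 12.5 and 15.8 CPM and the walking rats 3.90, 6.98, 6.01, 6.40 and 4.98. SWIM replicate 3 lay inside the range of the walking rats, and the other 4 swimming rats lay above it. The log2 fold change was 1.30 (standard error 0.29), with an adjusted p of 0.782 in edgeR and 0.0163 in DESeq2, and it was 1.52 with an adjusted p of 0.0326 in edgeR without SWIM replicate 3. The No SCI rats, between 5.01 and 7.82 CPM, and the TX SCI rats, between 3.32 and 8.98, lay near the walking rats, and among the CONT SCI rats 1 reached 16.3 CPM.

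**Figure D2:**
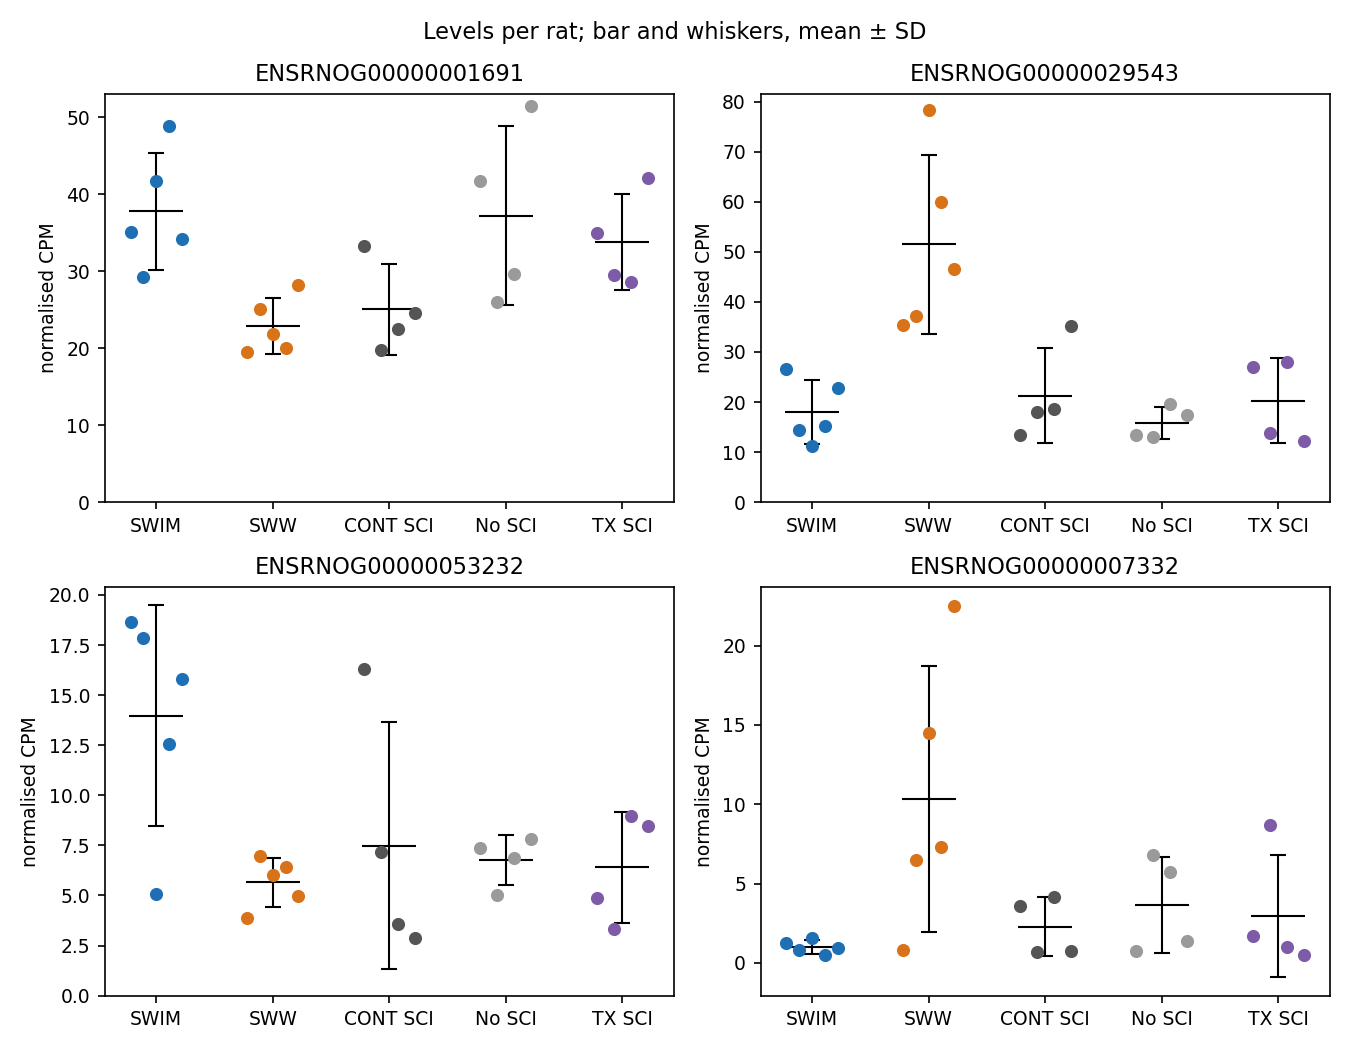
Normalised CPM of 4 genes in each rat of the SCI + Exercise set, with the mean and SD of each group as bar and whiskers. In ENSRNOG00000029543 the 5 walking rats sit at 35.4 CPM or more and the 5 swimming rats at 26.5 or less, while in ENSRNOG00000053232 and ENSRNOG00000007332 a single exercised rat (SWIM replicate 3 at 5.05 and SWW replicate 1 at 0.82 CPM) sits with the other group.

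For the 85 genes without overlap, the mean of the 4 CONT SCI rats, which took no part in choosing the genes, was nearer to the walking mean in 43 and nearer to the swimming mean in 42. It lay between the exercised groups in 54 genes, beyond the walking mean in 16 and beyond the swimming mean in 15. Among all 12525 genes the CONT SCI mean was nearer to the walking mean in 46.0%, and it lay between the exercised means in 3464. The 85 genes were chosen for a gap between the exercised groups, which by itself leaves more room between their means. The CONT SCI level in the 85 genes was thus on either side about equally often.

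Whole profiles did not sort by the kind of exercise among the swimming rats, and did so in part among the walking rats. Separation of the groups was not tested. The mean Euclidean distance between 2 livers, on log2(CPM + 1) of all genes tested, was 51.0 among the swimming rats (10 pairs), 43.8 among the walking rats (10 pairs) and 48.4 between the groups (25 pairs), so the swimming rats were on average no closer to each other than to the walking rats. By mean distance, 2 of the 5 swimming rats and 4 of the 5 walking rats were nearer to their own group than to the other. None of the 5 swimming rats had another swimming rat as its nearest neighbour, and 3 of the 5 walking rats had a walking rat. SWW replicate 2 was the nearest liver to SWIM replicates 1, 2 and 4, and SWW replicate 5 was the nearest to SWIM replicates 3 and 5.

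**Figure D3:**
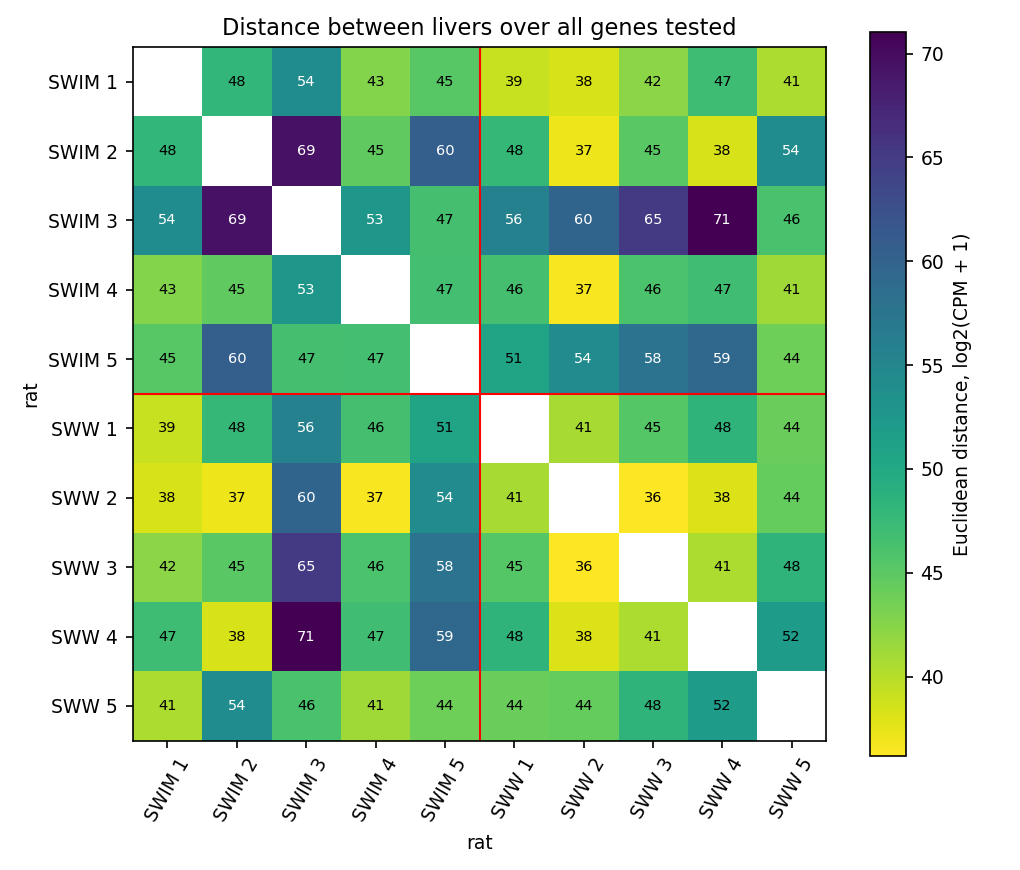
Euclidean distance between each pair of the 10 livers, in log2(CPM + 1) units over all genes tested. Red lines separate the groups. The largest distance, 71.0, lies between SWIM replicate 3 and SWW replicate 4, and the distances within the swimming block (42.6 to 69.3) cover most of the range of those between the groups (36.5 to 71.0).

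The swimming rats were more spread out, but the difference did not pass its test. Their mean distance to the centre of their own group was 32.2 log2 units, against 27.7 for the walking rats, a difference of 4.53. A two-sided permutation test over all splits into 5 and 5 gave p = 0.214, where the smallest possible p is 0.00794. Each group's mean was subtracted before the splits, so the p-value is approximate. Gene by gene, the SD was larger among the swimming rats in 7936 genes, or 63.4%, with a median SD of 0.24 after swimming and 0.20 after walking on the log2 scale. SWIM replicates 2 and 3 were the farthest from their centre, at 38.5 and 38.3, and lay 69.3 from each other. Without SWIM replicate 3 the difference of the mean distances was 1.62 (permutation p = 0.571).

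A single axis of variation ran through both groups. The first principal component of the 10 profiles held 37.7% of the variance, the second 11.7% and the third 10.4%. Scores on the first, signed so that SWIM replicate 3 is positive, were 1.62, -23.9, 39.2, 1.43 and 24.6 for swimming replicates 1 to 5 and -0.595, -13.8, -17.0, -25.2 and 13.7 for walking replicates 1 to 5. At the high end were SWIM replicates 3 and 5 and SWW replicate 5, and at the low end SWW replicate 4 and SWIM replicate 2, so each end held rats of both groups. The mean score was 8.57 after swimming and -8.57 after walking, with SDs of 24.2 and 15.3.

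Fewer genes were detected at the high end of this axis. With every library thinned to 26190364 counts, the 3 rats with the highest scores had the fewest genes with a count, 13648 for SWIM replicate 3, 14664 for SWW replicate 5 and 14865 for SWIM replicate 5. The other 7 rats had between 15022 and 15277. The part of gene detection in the axis was not tested. Of the 200 genes with the largest loadings, 186 were lower and 14 higher toward the high end, and 11 of the 200 had an unadjusted p under 0.05 between the groups. The median range of these 200 genes over the 10 rats was 2.07 on the log2 scale, against 0.73 for all genes tested.

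Rats that had not exercised varied in the same 186 genes. Their mean log2(CPM + 1) ran from 2.15 to 4.12 in the swimming rats (median 3.21) and from 2.91 to 4.09 in the walking rats (median 3.70). In rats that took no part in choosing the genes it ran from 2.90 to 3.47 in CONT SCI, from 2.18 to 3.69 in No SCI and from 1.85 to 3.59 in TX SCI. The CONT SCI rats covered the narrowest range. The lowest No SCI rat, at 2.18 with 15666 genes detected, was near SWIM replicate 3, at 2.15 with 13648. The lowest TX SCI rat, at 1.85, had 14682 genes detected.

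**Figure D4:**
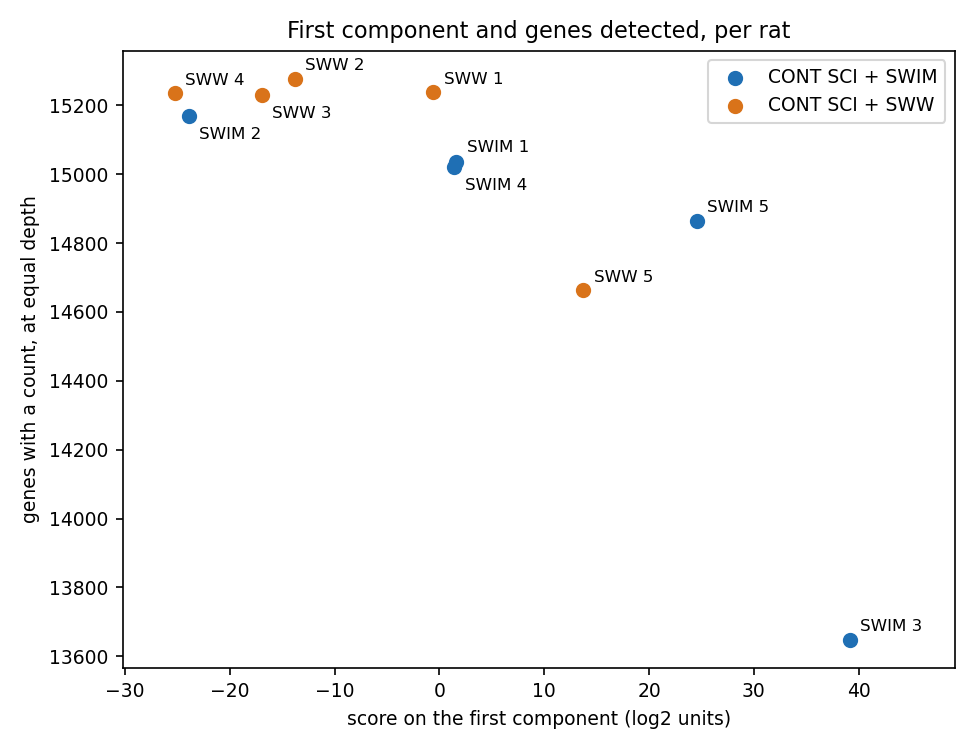
Score of each rat on the first principal component of the 10 livers (horizontal, log2 units) and its number of genes with a count after thinning to equal depth (vertical, axis not starting at 0). SWIM replicate 3 stands at a score of 39.2 with 13648 genes, and rats of both groups occur at low and at high scores.

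Single rats decided how many genes passed an unadjusted p under 0.05. With all 10 rats there were 680. Without SWIM replicate 2, one of the 2 rats lowest on the axis, there were 1626 genes, 739 higher and 887 lower after swimming. Without SWW replicate 5, the walking rat highest on the axis, there were 1096, 646 higher and 450 lower. Without SWIM replicate 5 there were 427. The number of genes past an adjusted p of 0.05 in edgeR was 0 in 8 of the 10 fits that left out a rat and 1 in the other 2.

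**Figure D5:**
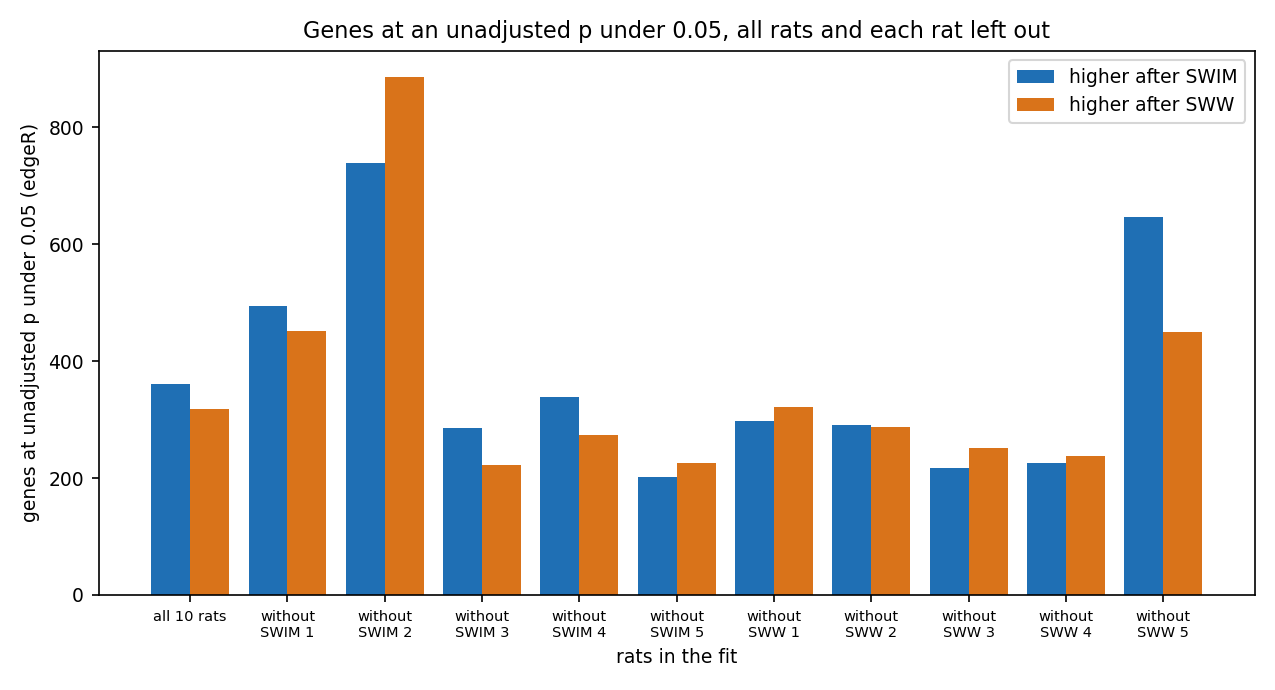
Number of genes at an unadjusted p under 0.05 by edgeR with all 10 rats and with each rat left out, split by the group with the higher mean. The bars are tallest without SWIM replicate 2 (739 and 887 genes) and without SWW replicate 5 (646 and 450 genes).

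Rats that stood apart in single genes were not concentrated in 1 group. The highest or lowest of the 5 rats was separated from the rest by Dixon's criterion (a gap over 0.71 of the range on log2(CPM + 1)) in 581 genes, or 4.64%, after swimming and in 598 genes, or 4.77%, after walking, where chance flags about 1 in 20 groups. SWW replicate 5 was the separated rat in 208 genes and SWIM replicate 3 in 206, while SWIM replicate 4 was in 47 and SWW replicate 2 in 50.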

How the data were processed

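Per the study's methods, the authors aligned single-end reads to rn6 with STAR and counted them on Ensembl genes with HTSeq in reverse-stranded mode, without mitochondrial genes. They deposited raw counts (whole numbers per gene, not normalized), 26190364 to 36607354 per library here. Per the labels, FastQC 0.10.1 was used. Samples were grouped by their titles.

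SWIM was set against SWW in a quasi-likelihood fit of the 10 libraries alone (edgeR 4.0.16, R 4.3.3, robust, TMM). Genes were kept by filterByExpr (at least 10 counts, total at least 15), with calls at a Benjamini-Hochberg adjusted p under 0.05 in this 1 comparison. Standard errors are the size of the fold change divided by the square root of F. Printed CPM were TMM-scaled over the 22 Exercise libraries. Distances and components used log2(CPM + 1) of the genes tested. DESeq2 1.42.0 was the alternative test. In simulated counts of 12525 genes for this comparison, edgeR recovered 71% of 2-fold and 95% of 4-fold changes with 9 unchanged genes called. DESeq2 recovered 78% and 97% with 28, and with no gene changed edgeR and DESeq2 called 0 and 1. The simulated counts were drawn independently for each gene and rat, without the axis that many genes share in the real profiles. The share of changes that would be recovered in these rats was therefore not measured. Alternatives were RLE normalization, no count filter, a joint fit of all 5 groups, a block for the replicate number, 500 high-variance genes or a pseudocount of 5 for the spread, and each rat left out. The first component as a covariate was added after the data were seen.

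By rule, 12 genes in each direction were to be named by lowest p, out of those without overlap that averaged 100 counts or more and had a symbol. No identifier had a symbol, so the first per direction and the 2 called without 1 rat are named. Gene and marker lists were not used here because no gene could be named. Comparison, rules and lists were chosen with earlier results of these data known. P-values set the difference between the groups against the spread between these rats, which are treated as independent. The rats can include cage mates. If cage mates resembled each other, the p-values can be too low, which was not tested.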

Additional observations from a re-analysis of the deposited data

Results flagged for a closer look

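Gene detection (genes with a nonzero count) stood apart from the rest of the group in SWIM replicate 3, with 13648 genes, and in SWW replicate 5, with 14859 genes. In both cases the gap to the nearest rat exceeded 0.71 of the group's range, which chance gives in about 1 in 20 groups of this size. SWIM replicate 3 had the fewest counted reads of the 10 libraries (26190364), whereas SWW replicate 5 had 34716199, more than 3 of the other walking rats, and still held fewer genes than each of them. No total of counted reads, share of the 10 top genes, distance to the group's centre or level of the 4 named genes was separated in this way in either group.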

How the results depend on the processing

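The absence of called genes held with RLE normalization, without a count filter, with all 5 Exercise groups in one fit, with the replicate block and with the first component as a covariate (0 genes each), while DESeq2's test called 14. Leaving out each rat gave 0 to 1 called genes, 427 to 1626 genes at an unadjusted p under 0.05 and 9807 to 10574 genes bounded within 2-fold. The difference in spread ran from 1.62 to 6.82 (permutation p of 0.127 to 0.571) in those fits, and was 2.04 with the 500 most variable genes. Unadjusted counts were 683 with RLE, 891 without the filter (404 higher and 487 lower after swimming, against 361 and 319), 807 with all groups, 813 with DESeq2 and 515 with the component. With the replicate block there were 814 genes (342 higher and 472 lower), but the rats share only a number: deviations of same-numbered rats correlated at 0.07, 0.21, -0.17, 0.11 and 0.29, and 1 of 10 rats correlated best with its own number. The 4 named genes kept their direction in all 64 alternative values, 6 of which passed an adjusted p of 0.05. The 6 were the DESeq2 value of each gene and the leave-one-out calls by which ENSRNOG00000007332 and ENSRNOG00000053232 were chosen. The genes were picked from these same rats, so a kept direction in refits of mostly the same rats is no independent support. Where numbers changed between rats left out, the cause was not tested. List medians were not run, since no gene could be named. The standard error was largest in genes under 100 counts (median 0.34), and the parts of depth and of the spread between rats in it were not tested.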
